A study of Mus musculus with 4 samples.

Results

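S100a8, S100a9, Camp, Ngp, Ltf and Lcn2 are 6 genes that neutrophil precursors of the marrow transcribe strongly, and they were followed here in classical monocytes. They were chosen by symbol among the 27998 genes counted, and all 6 were found in both data sets. The cells came from bone marrow of C57BL/6 wild-type mice without any treatment, 5 young and 5 old mice of each sex. The young mice had reached 14 weeks (males) or 15 weeks (females) when studied, the old mice 27 months (males) or 26.5 months (females). Cells of each mouse carried a hashtag antibody of their own, were pooled by sex and sorted as Ly6G-CD11b+CD115+Ly6C-high cells, so that each sex was 1 library and sex and library cannot be told apart. The question was how much of these transcripts the sorted monocytes held, in how many cells, and whether the amounts differed between old and young mice.

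S100a8 and S100a9 encode the subunits of calprotectin, a calcium- and zinc-binding protein that fills the cytosol of neutrophils and is also made by monocytes. Camp (cathelicidin, the precursor of an antimicrobial peptide), Ngp (neutrophilic granule protein), Ltf (lactoferrin, which binds iron) and Lcn2 (lipocalin 2, which binds bacterial siderophores) encode proteins of the secondary granules. Developing neutrophils fill primary granules first, with proteins such as myeloperoxidase (Mpo) and neutrophil elastase (Elane), and switch to secondary granule proteins at the myelocyte stage, under the transcription factor C/EBP epsilon. Ly6C-high monocytes include a neutrophil-like subset (NeuMo), which carries Mpo and Elane transcripts, and a dendritic cell-like subset (DCMo), which carries MHC class II transcripts.

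The genes lie at 3 places of the mouse genome (GRCm38). S100a8 (chr3:90668978-90670035, plus strand) and S100a9 (chr3:90692632-90695721, minus strand) are neighbours whose starts are 26.7 kb apart. Camp (chr9:109847379-109849617, minus strand), Ngp (chr9:110419747-110423012, plus strand) and Ltf (chr9:111019271-111042767, plus strand) fall within 1.2 Mb. Lcn2 (chr2:32384633-32388252, minus strand) lies alone.

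Because the level of Camp correlated over the mice with those of Ngp, S100a9, S100a8 and Ltf, as given further on, DNA just upstream of these genes is shown, from RefSeq on GRCm38.p6. S100a8 and Lcn2 are left out of the print since annotated transcripts cover their windows. Each stretch ends 1 base before the gene as annotated. Capitals mark a C/EBP-like motif (TTGCNNAA) or a PU.1 core (GAGGAA), both searched on either strand. The stretches are chr3:90695722-90695971 (minus strand) for S100a9, chr9:109849618-109849706 (minus strand) for Camp, chr9:110419558-110419746 (plus strand) for Ngp and chr9:111019042-111019270 (plus strand) for Ltf.
S100a9: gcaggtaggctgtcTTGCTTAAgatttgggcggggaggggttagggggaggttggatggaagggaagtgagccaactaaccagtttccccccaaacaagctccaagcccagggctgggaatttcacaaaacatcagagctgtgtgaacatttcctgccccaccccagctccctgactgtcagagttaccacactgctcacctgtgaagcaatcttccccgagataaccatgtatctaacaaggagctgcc
Camp: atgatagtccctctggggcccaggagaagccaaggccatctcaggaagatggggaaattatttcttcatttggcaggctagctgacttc
Ngp: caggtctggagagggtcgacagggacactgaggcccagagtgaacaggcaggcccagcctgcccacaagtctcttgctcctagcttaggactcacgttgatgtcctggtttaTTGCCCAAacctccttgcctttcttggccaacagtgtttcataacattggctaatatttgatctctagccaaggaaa
Ltf: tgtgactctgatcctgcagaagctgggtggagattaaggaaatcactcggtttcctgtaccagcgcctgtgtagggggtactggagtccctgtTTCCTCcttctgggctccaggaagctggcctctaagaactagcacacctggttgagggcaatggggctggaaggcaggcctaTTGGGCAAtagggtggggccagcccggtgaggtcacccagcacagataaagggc
Over the full window of 250 bases before and 50 bases after each RefSeq start, the C/EBP-like motif was found once in S100a9, Ltf and Lcn2 and 2 times in Ngp, while the S100a8 and Camp windows held 0. Of all 32851 windows of that length, 10.8% held it. The PU.1 core was in the windows of S100a8, Ltf and Lcn2, against 28.3% of all windows. A TATA box (TATAAA, either strand) was in those of S100a8 and S100a9, against 13.6%. These are matches of letters and not binding sites.

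Values are counts of unique molecular identifiers (UMIs), each standing for 1 captured transcript. After cells were given to the mouse of their leading hashtag, 7604 of 10433 female and 1226 of 1227 male barcodes were kept, and the 2 libraries shared 0 barcodes. Per mouse, 2861770 to 21892113 UMIs were counted in females and 330586 to 1108320 in males. Median UMIs per cell were higher in old than in young mice, at 10106 to 15274.5 against 8398 to 9476.5 in females and at 4489.5 to 8844 against 3805.5 to 4455.5 in males. The monocyte label fitted the bulk of the cells by Csf1r (the receptor of the monocyte growth factor M-CSF) and Ly6c2. Outside the cells rich in the 6 genes (defined below), 91.7% of female cells had a UMI of Csf1r and 99.5% of Ly6c2. For Ly6g, the defining neutrophil marker, whose protein the sort excluded, it was 0.291%. In males these shares were 54.6, 93.4 and 0.0828%. Other neutrophil markers were mixed in these female cells. Mmp8, Cd177 and Csf3r had a UMI in 51.3, 51.0 and 48.9% of them, but Wfdc21, Cxcr2, Retnlg, Mmp9 and Stfa2l1 in 3.36% or fewer. Small clusters of other cells were T or NK cell-like in females (61 cells) and basophil-like in males (15 cells).

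Levels are given as counts per 1e6 (CPM), that is UMIs of the gene per 1e6 RNA UMIs of a mouse over all its kept cells. Camp stood at 4.60, 4.55, 137, 4.80 and 4.46 CPM in old females 1 to 5 and at 151, 87.9, 588, 67.7 and 139 CPM in young females 1 to 5. In old males 1 to 5 it stood at 10.8, 1165, 885.5, 2738 and 387 CPM and in young males 1 to 5 at 13.1, 1919, 1012, 14.7 and 4.94 CPM. Within a single group of 5 mice the gene was thus either between 4.46 and 14.7 CPM or at 67.7 CPM and above, and old female 3 was the only old female within the range of the young ones. The highest mouse of the pool exceeded the lowest 132-fold in females and 554.5-fold in males.

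Ngp followed Camp mouse by mouse. It stood at 3.27, 3.79, 68.7, 2.81 and 3.05 CPM in old females and at 81.1, 51.8, 481, 45.0 and 78.8 CPM in young females. In males it ran from 6.32 to 1464 CPM in old and from 6.55 to 1709 CPM in young mice, with the same mice high. Over the 10 mice of a pool, the Pearson correlation of Camp and Ngp was 1.0 in females and 0.96 in males, a description over mice that share a library. With Camp, S100a9 correlated at 0.97 and 0.98, S100a8 at 0.89 and 0.97, Ltf at 0.73 and 0.79 and Lcn2 at 0.37 and 0.79 in females and males.

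Ltf, the member with the fewest UMIs, stood at 0.605, 1.21, 2.11, 0.549 and 0.435 CPM in old females and at 4.48, 0, 61.9, 5.30 and 6.15 CPM in young females. The 0 of young female 2 allows up to 0.463 CPM (3 counts). In males 5 of the 10 mice had 0 Ltf UMIs, with limits of 2.71 to 9.08 CPM, while young male 2 reached 263 CPM and old male 4 reached 152.5 CPM.

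S100a9 stood at 100.6, 34.1, 423, 53.2 and 51.1 CPM in old females and at 426, 256, 1214, 226 and 385 CPM in young females. S100a8, its partner, stood at 256, 139, 454, 197 and 170 CPM in old females and at 367, 275, 832, 244 and 398 CPM in young females. For both genes the old group was the lower one apart from old female 3, and for S100a8 old female 1 also lay inside the young range. In males S100a8 ran from 200 to 8314 CPM in old and from 226 to 5209 CPM in young mice, and S100a9 from 11.7 to 3449 and from 11.5 to 1678 CPM.

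Lcn2 varied least. It stood at 59.9, 65.9, 88.2, 73.4 and 65.4 CPM in old females, at 50.7, 41.2, 189, 50.7 and 73.4 CPM in young females, and between 18.2 and 249 CPM in the 10 males. The female groups overlapped, and the highest female mouse was 4.58 times the lowest.

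**Figure D1:**
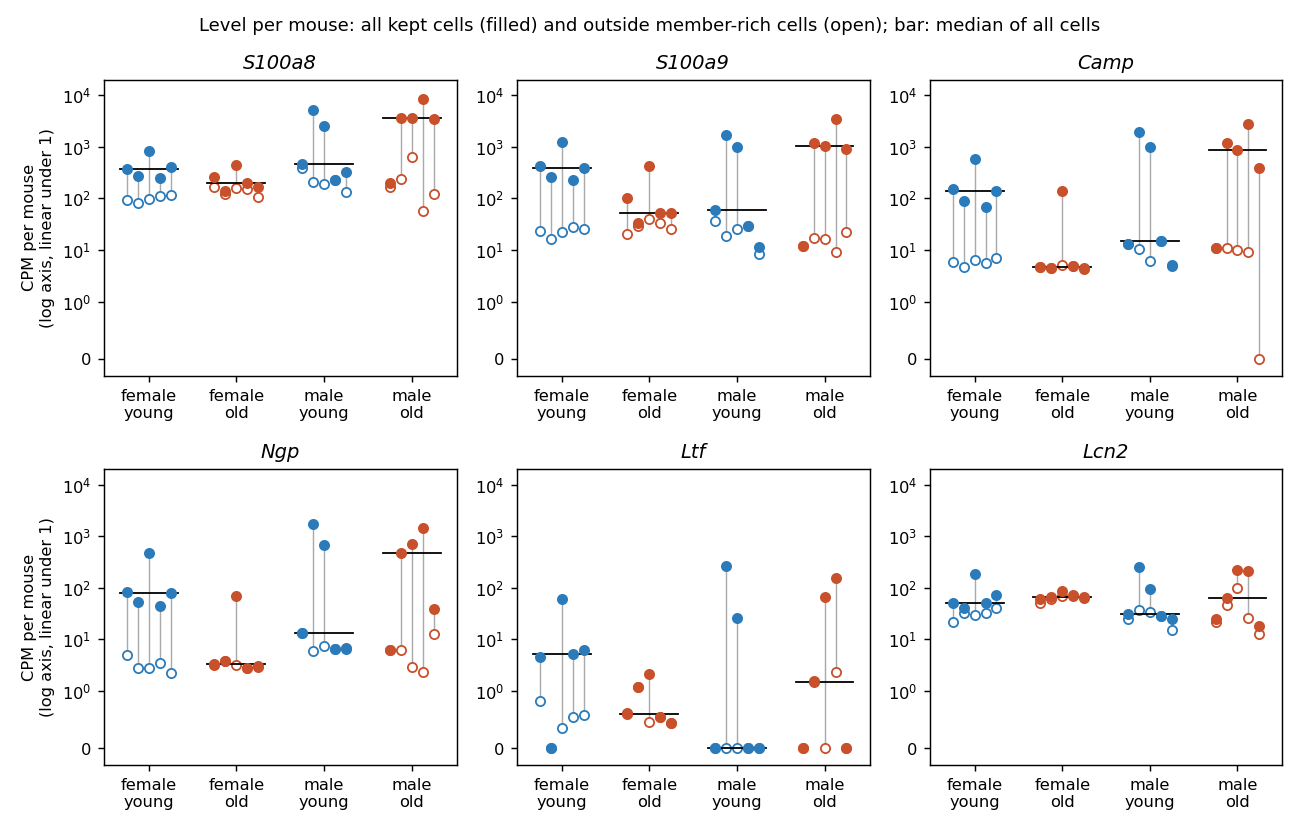
Level of each of the 6 genes per mouse (CPM, log axis that is linear under 1), by sex and age, with filled points for all kept cells, open points for the same mouse without its member-rich cells and a bar at the median of the filled points. Filled Camp points spread from 4.46 to 588 CPM in females and from 4.94 to 2738 CPM in males, while the open points fall between 4.26 and 14.7 CPM, apart from 0 in old male 5.

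By edgeR's quasi-likelihood test on UMIs summed per mouse, 0 of the 6 genes passed an adjusted p of 0.05 for old against young females, where 4.73% of the 10386 genes tested did. At an unadjusted p under 0.05 there were 5 of the 6, as were 2155 of all genes tested. DESeq2 called 1, Ltf, among 563 genes, and gave no p for Ngp. The fitted log2 fold changes (old minus young) were -0.77 (SE 0.333, adjusted p = 0.205) for S100a8, -1.87 (SE 0.62, adjusted p = 0.0998) for S100a9, -2.52 (SE 0.862, adjusted p = 0.109) for Camp and -0.05 (SE 0.308, adjusted p = 0.971) for Lcn2. For Ngp the fold change was -2.85 (SE 0.857) and for Ltf -3.43 (SE 1.02), with adjusted p of 0.0703 and 0.0681 by edgeR. A single mouse decided these calls. Without old female 3, Camp (-5.36, adjusted p = 0.000958), Ngp (-5.36, adjusted p = 0.0026), S100a9 (-3.02, adjusted p = 0.00208) and S100a8 (-1.12, adjusted p = 0.0387) passed by edgeR, and without young female 2 Ltf alone did (-3.79, adjusted p = 0.0454).

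In males 5 of the 6 genes were tested, since Ltf failed the filter on low counts, and 0 passed by edgeR, where 0.0% of the 5655 genes tested did. There were 0 of the 5 at an unadjusted p under 0.05 and 0 by DESeq2, while over all genes 624 lay under 0.05 unadjusted and DESeq2 called 22. The log2 fold changes were 1.12 (SE 0.766) for S100a8, 1.23 (SE 0.986) for S100a9, 0.79 (SE 1.07) for Camp, 0.13 (SE 1.08) for Ngp and 0.31 (SE 0.631) for Lcn2. The level of Ltf differed by 0.37 on the log2(CPM + 1) scale (two-sided exact permutation p = 0.841, n = 5 per group). The difference of the age effects between the pools was itself tested: 0 of the 6 genes passed by edgeR, against 0.0225% of the 8885 genes tested, with 2 at an unadjusted p under 0.05 and 0 by DESeq2.

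These p-values measure the spread between mice. A sum per mouse cannot tell a greater number of cells with a transcript from more transcript per cell, so the cells were examined next.

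The UMIs of the 6 genes were concentrated in very few cells. The 1% of female cells with most of the gene held 94.7% of Camp, 95.2% of Ngp, 100% of Ltf, 91.8% of S100a9, 67.5% of S100a8 and 38.2% of Lcn2 UMIs. The same share of cells held 3.94% of Csf1r, 22.6% of Mpo and 23.4% of Elane UMIs, the latter pair being genes of the NeuMo subset. In males the shares were 98.8% for Camp, 98.8% for Ngp, 100% for Ltf, 97.3% for S100a9, 87.6% for S100a8 and 63.2% for Lcn2. This 1% was 77 female and 13 male cells. For Ltf 100% had to follow, since 7542 of 7604 female and 1219 of 1226 male cells had 0 UMIs of it. A gene with few UMIs also reaches a larger share by counting alone, and Csf1r had 24198 female UMIs against 8069 of Camp.

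Single cells therefore set the level of a whole mouse. In young female 1, 1 of 615 cells held 1068 of 1113 Camp UMIs (96.0%), and in young female 5 another held 1158 of 1219. In old male 5 a single cell held all 128 Camp UMIs. By contrast, in old females 1, 2, 4 and 5 no cell held more than 2 Camp UMIs, and their 30 to 70 UMIs came from cells with 1 or 2 each. For 50% of all UMIs of a gene in the female pool, 4 cells were enough for Camp and for Ngp, 3 for Ltf, 8 for S100a9, 32 for S100a8 and 162 for Lcn2.

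**Figure D2:**
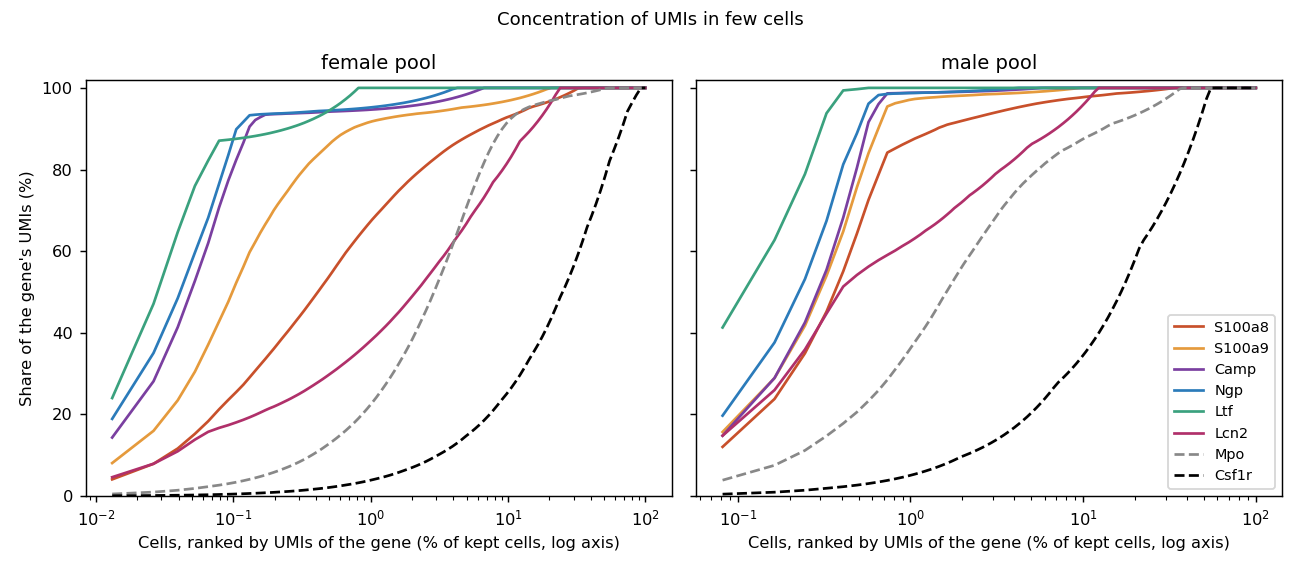
Cumulative share of the UMIs of each gene (vertical axis, %) held by the cells with most of it (horizontal axis, % of kept cells, log axis), in the female pool (left) and the male pool (right), with Mpo and Csf1r as dashed lines for comparison. The curves of Camp, Ngp and Ltf rise to over 80% within the first 1% of cells, while Csf1r reaches 3.94% there in females.

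Cells in which the 6 genes together made up at least 1% of RNA UMIs are called member-rich here. They numbered 50 of 7604 in females (25 in old, 25 in young mice) and 18 of 1226 in males (12 old, 6 young). The threshold cut through a continuous range, with 1.01% in the lowest member-rich and 0.976% in the highest other female cell, and 1.02% against 0.914% in males. In females member-rich cells held 93.6% of Camp, 93.7% of Ngp, 87.3% of Ltf, 88.7% of S100a9, 57.8% of S100a8 and 27.9% of Lcn2 UMIs.

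They were few in every mouse. Old females had 4, 1, 14, 4 and 2 member-rich cells and young females 4, 4, 3, 9 and 5. As a share of a mouse's cells this was 0.621% ± 0.459 in old and 0.757% ± 0.277 in young females (SD, n = 5 each, two-sided exact permutation p = 0.587). In males it was 3.19% ± 2.18 in old and 0.861% ± 0.623 in young mice (exact permutation p = 0.0635, 0.127 after adjustment over both pools), and without old male 1 the male difference passed. Against 5 mice, 5 mice allow no p under 0.0079.

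Within the member-rich cells, a smaller class carried nearly all of the Camp. Cells with 5 or more Camp UMIs, called Camp-rich here, numbered 14 in females and 9 in males, all of them member-rich, and held 93.5% and 98.7% of the Camp UMIs of their pool. The 14 female cells came from 6 mice, 5 of them from old female 3 and 9 from the 5 young females. The 4 other old females had 0 among 434 to 1128 kept cells each, which allows shares of up to 0.266 to 0.691%. Barcodes left out by the hashtag rule are not counted in these limits. The 9 male cells came from 4 old and 2 young males, which are the 6 males with a Camp level of 387 CPM or more.

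The Camp-rich cells differed from the monocytes around them in genes that did not define them, given here as a description since cells of 1 mouse are not replicates. Csf1r stood at 44.6 CPM in the female Camp-rich cells against 245 CPM in the cells that were not member-rich, and at 12.1 against 156 CPM in males. Irf8 and Klf4, transcription factors of the monocyte fate, had 0 UMIs in the 9 male Camp-rich cells and stood at 120 against 464 CPM and 111 against 291 CPM in females. Cebpe, which encodes C/EBP epsilon, stood at 557 CPM against 18.4 CPM in females and at 896 against 16.9 CPM in males, and every one of the 23 cells had a UMI of it.

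Several other genes of neutrophil precursors were high with it. Wfdc21 stood at 1150 against 3.92 CPM in females, Pglyrp1 (a peptidoglycan-binding protein of the granules) at 2170 against 51.2 CPM, and Fcnb (ficolin B, found in marrow myeloid precursors) at 838 against 32.0 CPM. Not every granule gene was: Mmp8, a neutrophil collagenase, stood at 49.0 against 86.5 CPM in females and at 0 against 82.6 CPM in males, and Cybb, a subunit of the phagocyte oxidase, at 704 against 799 CPM in females and 690.5 against 588 CPM in males. Genes of mature neutrophils were scarce in counts, but several stood above the cells that were not member-rich. Ly6g had 0 to 5 UMIs per Camp-rich cell, Stfa2l1 had 0 in all female cells, and Mmp9, Retnlg and Cxcr2 totalled 3, 8 and 3 UMIs over the 14 female cells. In females Ly6g stood at 40.1 against 0.234 CPM and Retnlg at 35.7 against 0.315 CPM. Of the 9 Ly6g UMIs behind the first value, 5 came from 1 shallow cell of 1461 UMIs. Mmp9 stood at 13.4 against 0.223 CPM and Cxcr2 at 13.4 against 0.366 CPM. In males Ly6g stood at 24.2 against 0.151 CPM, while Mmp9 and Cxcr2 had 0 UMIs in the Camp-rich cells. The sort gate had taken Ly6G-negative cells.

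Surface antibody counts, deposited for the female library only, were a further readout. CD11b, a subunit of an integrin that neutrophils carry in quantity, had a median of 198 counts in the 14 Camp-rich cells against 41 in the cells that were not member-rich. In 12 of the 14 it lay above the 90th percentile of those cells (96 counts), and the median was higher in 6 of 6 mice. Other antibodies were also higher: Ly6C, with a median of 637 against 494 counts, and I-A, an MHC class II protein, with 38.5 against 24, had the higher median in 6 of 6 mice, and CD11c, with 2.5 against 2, in 5 of 6. CD115, the protein of Csf1r, had a pooled median of 2.5 against 4 counts, but the higher median within 4 of 6 mice. HTODemux, the study's hashtag caller, called 3 of the 14 cells doublets (21.4%, against 14.0% of the cells not member-rich), and 4 of 9 in males (44.4% against 32.5%). The median RNA depth of the female Camp-rich cells, 16310 UMIs, exceeded the 10230 UMIs of the cells not member-rich. It lay below the 25080 UMIs of the NeuMo-like cluster, in which 34 of the 50 female member-rich cells fell. In males the 3 medians were 9368, 4496 and 11840 UMIs. The part of doublets in these cells was not tested further.

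Among the Camp-rich cells the 6 genes came on in different combinations. Ltf divided them: 6 female and 5 male cells had 10 or more Ltf UMIs, and the other 8 and 4 had 0 or 1, a division made after the values were seen. The cells with Ltf also had Lcn2, at 41 to 311 UMIs in the 6 female and 42 to 94 in the 5 male cells. Those without Ltf had 0 to 24 Lcn2 UMIs in the 8 female and 0 to 18 in the 4 male cells.

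Primary granule transcripts ran the other way. Elane reached 0 to 63 UMIs in the female cells with Ltf and 183 to 704 in those without, and 1 to 28 against 100 to 410 in males. Mpo reached 0 to 2 against 16 to 138 UMIs in females and 0 to 2 against 10 to 95 in males. Neither gene overlapped between the classes in either pool. Camp and the S100 genes were present on both sides. The cell with the most Elane (704 UMIs) had 181 S100a8, 63 S100a9, 7 Camp, 0 Ngp and 0 Ltf UMIs, while a cell of young female 3 with 2 Elane UMIs had 906 S100a8, 1395 S100a9, 915 Camp, 950 Ngp, 100 Ltf and 221 Lcn2 UMIs. Ngp lay between: of the 8 female cells without Ltf, 3 with 183 to 563 Elane UMIs had 318 to 429 Ngp UMIs, and 4 with 550 to 704 had under 10.

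**Figure D3:**
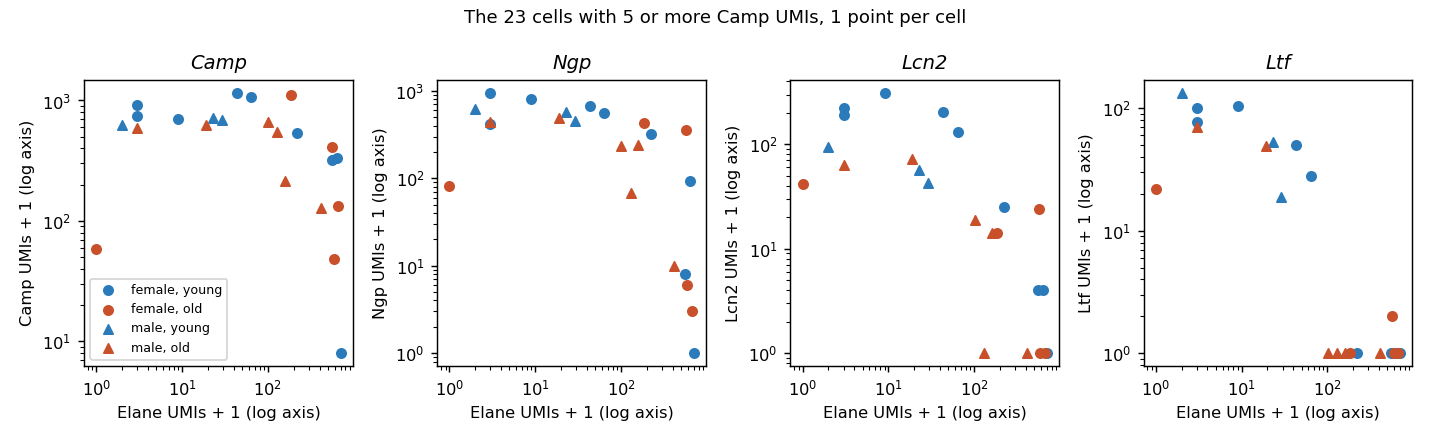
Camp, Ngp, Lcn2 and Ltf UMIs (vertical axes, plus 1, log) against Elane UMIs (horizontal axes, plus 1, log) in the 23 Camp-rich cells, 1 point per cell, circles for females, triangles for males, blue for young and red for old mice. Ltf and Lcn2 are high at 63 or fewer Elane UMIs and at or near 0 at the highest Elane counts, while Camp is present across the range.

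The classes were unevenly spread over the ages in this small number of cells. In females the class with Ltf comprised 1 old and 5 young cells and the class without 4 old and 4 young, and in males 2 old and 3 young against 4 old and 0 young. The 1 old female cell with Ltf was shallow, with 1461 UMIs and 0 of Ly6c2, and HTODemux called it negative. With 3 to 5 mice behind each class the spread over the ages was not tested.

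The other member-rich cells, 36 in females and 9 in males, carried S100a8, S100a9 and Lcn2 but little or no Camp, Ngp and Ltf. Every one of them had a UMI of Lcn2. In females S100a8 stood at 12970 CPM, S100a9 at 10580 CPM and Lcn2 at 1160 CPM, against 125, 28.1 and 49.1 CPM in the cells that were not member-rich, a difference that the definition sets. Camp totalled 7, Ngp 4 and Ltf 0 UMIs over all 36 cells, and over the 9 male cells all 3 genes had 0. Genes that did not define them were mixed. Among monocyte genes in females, Ly6c2 stood at 3259 CPM against 2446 CPM in the remaining cells and Irf8 at 445 against 464 CPM, but Csf1r at 81.6 against 245 CPM, Ccr2 (the receptor by which monocytes leave the marrow) at 272 against 893 CPM and Fn1 (fibronectin) at 116 against 990 CPM. In females several genes of neutrophil precursors stood higher, with Elane at 12020 against 2186 CPM and Cebpe at 143.5 against 18.4 CPM. Fcnb stood at 540 against 32.0 CPM and Wfdc21 at 179 against 3.92 CPM. Mmp8 stood lower, at 50.57 against 86.51 CPM, as did Cd177 (53.83 against 83.06 CPM) and Csf3r (40.78 against 55.75 CPM). Over the 9 male cells Elane (1602 against 924 CPM), Fcnb (329.8 against 29.04 CPM) and Wfdc21 (109.9 against 16.4 CPM) were higher. Mpo (62.82 against 437.2 CPM), Ctsg (94.23 against 486.7 CPM) and Ms4a3 (31.41 against 89.69 CPM) were lower there. Elane is also a leading gene of the NeuMo-like cluster, which held 34 of the 50 female member-rich cells. For both classes the comparison was with all remaining cells and not with that cluster alone. Whether these differences are particular to member-rich cells within that cluster was not tested. Chil3, a chitinase-like protein of mature Ly6C-high monocytes and neutrophil precursors, stood at 6073 against 1114 CPM in females.

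The pooled balance of the calprotectin subunits differed between the classes. In summed UMIs of S100a9 per UMI of S100a8, Camp-rich cells stood at 1.71 in females and 0.375 in males, the other member-rich cells at 0.816 and 0.122, and the remaining cells at 0.224 and 0.0800. Ordered by S100a8 in the female pool, the ratio was 0.176 in cells with 1 to 3 S100a8 UMIs, 0.0801 at 4 to 9, 0.0933 at 10 to 29, 0.218 at 30 to 99 and 1.21 at 100 or more. It was lowest in cells with 4 to 29 S100a8 UMIs and highest in those with 100 or more. The male library had the lower ratio in each class, and male Camp-rich cells lay below the other member-rich cells of females. Single cells were not separated by it, as the Camp-rich cell with 181 S100a8 and 63 S100a9 UMIs shows.

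The genes most like the 6 over mice included 4 that were high in the Camp-rich cells. By the mean over both pools of the Pearson correlation between log2 CPM and that of the summed 6 genes (10 mice per pool, 5644 genes), Cebpe led with 0.749 in females and 0.908 in males. Pglyrp1 (0.695 and 0.913), Wfdc21 (0.631 and 0.969) and Fcnb (0.705 and 0.889) followed, then Chmp6, Araf, Golgb1, Snx30, Sptbn1 and Zranb2 with means of 0.744 to 0.654, which were not among the genes described in those cells. By level in member-rich against all other cells, Wfdc21, Fcnb, Cd63, Pglyrp1, Cebpe, Rgcc, Elane, Mrgpra2b, Lrg1 and G0s2 led in both pools. Both are descriptions, since a few cells feed all of these values.

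Most cells with a Camp UMI were of another kind. In females 467 cells had exactly 1 Camp UMI, 20 had 2, 4 had 3, 1 had 4 and the 14 Camp-rich cells had 7 to 1158. In droplet libraries, free RNA gives UMIs also in cells that do not express a gene. The share of cells with a UMI was 6.56% (exact 95% interval 1.82 to 15.9%) in the T or NK cell-like cluster, at a median of 12870 UMIs per cell. Whether those cells make Camp themselves was not tested. Over the monocyte clusters of the female pool, member-rich cells included, it was 4.00 to 11.98%. The level outside member-rich cells was 4.19 to 8.29 CPM against 5.00 CPM in the T or NK cell-like cells. The level in the T or NK cell-like cells rests on 4 cells with a UMI, and the shares of the monocyte clusters lay within its interval. So wide an interval would cover most shares, so the low Camp level outside member-rich cells is assigned neither to expression nor to free RNA. Its source was not tested.

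Ngp had a similar ratio to Camp in the pooled sums of both kinds of cells. There were 0.622 Ngp UMIs per Camp UMI in the female Camp-rich cells (exact 95% interval 0.600 to 0.646) and 0.618 (0.536 to 0.712) in the cells that were not member-rich, and in males 0.654 (0.625 to 0.684) and 0.723 (0.486 to 1.07). Over the 6 largest female clusters the ratio lay between 0.519 and 0.816, each with an interval that covered 0.622. Over single mice it was not constant: outside member-rich cells the Pearson correlation of Camp and Ngp was -0.15 in females and -0.42 in males (10 mice each), with 4.55 CPM of Camp and 3.79 of Ngp in old female 2 but 6.91 and 2.19 CPM in young female 5. In cells thinned to 2000 UMIs, the variance over the mean outside member-rich cells was 1.08 for Camp, 1.03 for Ngp and 0.999 for Ltf. UMIs spread evenly give 1. Before thinning, female cells outside the member-rich class held at most 4 Camp, 3 Ngp and 1 Ltf UMIs each. Counts so low give values near 1 largely whatever their spread, so these values cannot show an even one. Intervals here cover counting error only.

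The ratio of S100a8 and of Lcn2 to Camp differed more between the kinds of cells. Per Camp UMI there were 1.18 S100a8 and 0.154 Lcn2 UMIs in Camp-rich cells but 23.9 and 9.37 in the female cells that were not member-rich. Over the 6 largest clusters S100a8 ran from 5.34 to 53.5 and Lcn2 from 1.74 to 17.9 per Camp UMI. The variance over the mean was 4.52 for S100a8 and 1.57 for Lcn2, against 1.60 for S100a9.

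S100a8 and Lcn2 levels differed by cluster in females. Clusters were formed without the 6 genes. Outside member-rich cells, the median over 10 female mice of the S100a8 level was 229 CPM in the NeuMo-like cluster, 171 CPM in the S-phase and 103 CPM in the G2/M cluster, but 23.9 CPM in the DCMo-like cluster. It was higher in each of the former 3 clusters than in the DCMo-like cells of the same mouse in 10 of 10 mice. For Lcn2 the medians were 65.3, 63.4, 46.3 and 10.4 CPM, with the same count of mice for each cluster.

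The low end of this order lay near the level of the T or NK cell-like cells. Those cells had passed the same sort gate, at a median of 12870 UMIs per cell. Whether they lack the genes was not tested. In pooled sums the T or NK cell-like cells stood at 37.5 CPM for S100a8 and 21.3 CPM for Lcn2. The DCMo-like cells stood at 32.6 and 10.6 CPM in the same measure. The pooled Lcn2 value rests on 6 T or NK cell-like cells with a UMI. Per mouse, in the 2 mice with 10 or more T or NK cell-like cells, Lcn2 stood at 0 to 5.45 CPM, below the DCMo-like median. The share of cells with an S100a8 UMI was 31.1% (exact 95% interval 19.9 to 44.3%) in the T or NK cell-like cells and 19.3% in the DCMo-like cells at 8384 UMIs per cell, against 55.2% in the NeuMo-like cells at 25080. After thinning to 2000 UMIs these shares were 9.84, 3.60 and 19.3%. S100a9 outside member-rich cells had medians of 21.8 to 29.7 CPM in these clusters, beside 20.01 CPM in T or NK cell-like cells, and was higher in the NeuMo-like than in the DCMo-like cluster in 6 of 10 mice. In males, in the 5 mice with 10 or more cells in each cluster, S100a8 and Lcn2 were higher in the G2/M and S-phase clusters than in the DCMo-like cluster in 5 of 5. In the 2 males with enough NeuMo-like cells the female order did not appear for S100a8, which was higher there than in the DCMo-like cluster in 1 of 2 and lower than in the cluster led by Chil3 and Tmcc1 in 2 of 2 (median 283 against 1056 CPM), while Lcn2 was higher than in the DCMo-like cluster in 2 of 2.

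**Figure D4:**
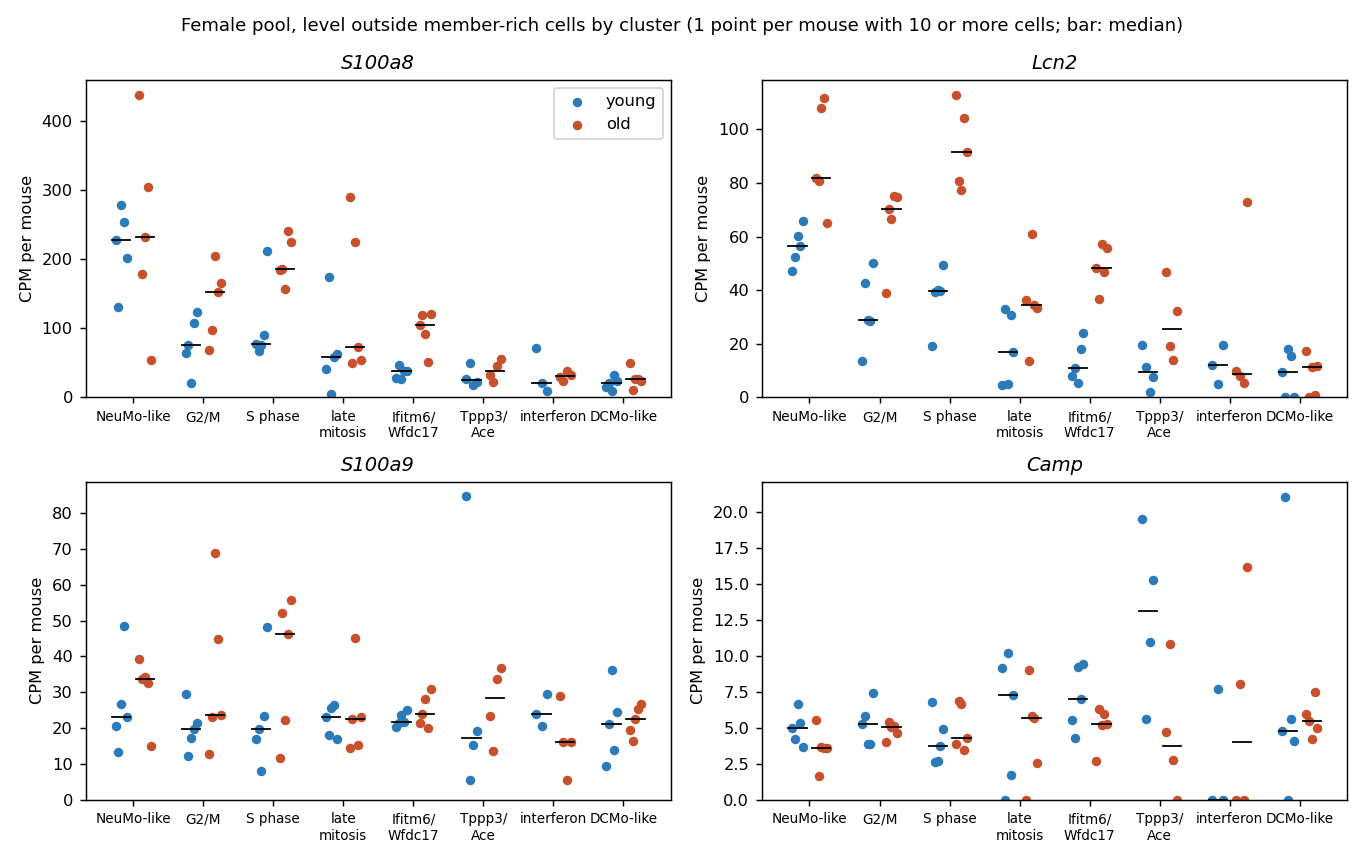
S100a8, Lcn2, S100a9 and Camp level outside member-rich cells (CPM) by cluster of the female pool, 1 point per mouse with 10 or more cells there, blue for young and red for old mice, bars at medians. S100a8 and Lcn2 medians are highest in the NeuMo-like, S-phase and G2/M clusters, while Camp stays near 5 CPM in most.

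The NeuMo-like cluster held 34 of 50 member-rich cells in females and 9 of 18 in males, where the other 9 were spread over 4 clusters, although NeuMo-like cells made up 918 of 7604 and 94 of 1226 cells. The leading genes of that cluster in females were Mpo, Ms4a3, Elane, Ctsg and Prtn3. The DCMo-like cluster had 0 member-rich cells among 694 female and 144 male cells, which allows shares of up to 0.432% and 2.08%.

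Outside member-rich cells S100a8 was higher in old than in young females, the opposite of its order in all cells, and Lcn2 separated the ages. Lcn2 stood at 50.4, 61.8, 69.6, 70.4 and 63.4 CPM in old females 1 to 5 and at 21.7, 32.7, 29.4, 32.1 and 41.0 CPM in young females 1 to 5. The groups did not overlap, with means of 63.1 ± 8.03 and 31.4 ± 6.95 CPM (SD, n = 5 each). S100a8 stood at 163, 121, 161, 155 and 106 CPM in old and at 92.5, 81.1, 97.2, 109 and 116 CPM in young females, with 4 old mice above all young ones.

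In edgeR's test on these cells 2 of the 5 genes tested passed, where 4.85% of the 10372 genes tested did. Lcn2 rose with age by 1.01 on the log2 scale (SE 0.125, adjusted p = 0.000396) and S100a8 by 0.51 (SE 0.116, adjusted p = 0.021). The cells left out were chosen in part by their S100a8 and Lcn2 UMIs. Of the other limits tried, Lcn2 passed by edgeR under each (0.81 to 1.06). S100a8 passed without cells at 0.3% or more (0.45, adjusted p = 0.0319 by edgeR) but not without cells at 3% or more (0.39, adjusted p = 0.229) or without Camp-rich cells alone (0.14, adjusted p = 0.745). For S100a9 the log2 fold change was 0.36 (SE 0.156, adjusted p = 0.207 by edgeR), against 0.24 at the 3% limit, -0.007 at the 0.3% limit and -0.48 without Camp-rich cells alone, so its sign depended on the limit. It was -0.29 for Camp (SE 0.13, adjusted p = 0.215 by edgeR) and -0.07 for Ngp (SE 0.195, adjusted p = 0.887), and Ltf was too low to be tested. The exact permutation test of each gene and pool gave a two-sided p of 0.0079 for Lcn2, the smallest that 5 against 5 mice allow, and 0.0238 for S100a8 and for Camp, which was lower in old mice at 4.70 ± 0.347 against 5.88 ± 0.855 CPM (n = 5 each). After adjustment over the 12 comparisons all 3 stood at 0.0952, so 0 of 12 passed, with 3 under 0.05 unadjusted. Over the 10 females the Pearson correlation of these levels with median UMIs per cell was -0.79 for Camp, 0.63 for Lcn2 and 0.34 for S100a8. Old females had the higher medians, so age and depth coincide in these levels.

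The share of cells with a UMI was a related measure that needs no class of cells to be left out. It was 30.3% ± 3.49 in old and 17.99% ± 1.88 in young females for Lcn2 and 38.1% ± 2.83 and 27.3% ± 3.70 for S100a8 (SD, n = 5 each). Both passed after adjustment over 12 comparisons (exact permutation p = 0.0079, adjusted 0.0476), and the other 10 did not. Since old cells were deeper, each cell was also thinned to 2000 UMIs, which left 9.25% ± 0.801 against 4.66% ± 1.27 for Lcn2 and 12.4% ± 0.529 against 8.15% ± 1.36 for S100a8, with the same p. In the 61 T or NK cell-like cells the thinned shares were 1.64% and 9.84%. The thinned S100a8 share of young females lay below the latter value. With so few cells and no interval on the thinned shares, no order is drawn from this. With old female 1, 3 or 5 left out, 0 of the 12 comparisons passed, and likewise with every cell given to its leading hashtag or without cells with 2 or more neutrophil markers.

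The Lcn2 difference kept its direction within clusters but was small in some and passed in none after adjustment. Outside member-rich cells the old mean exceeded the young one in 8 of 8 female clusters, 4 of them with an unadjusted exact permutation p under 0.05. In the cluster led by Wfdc17 and Ifitm6, which made up 25.8% of old and 41.6% of young cells (mean over mice), Lcn2 ran from 36.6 to 57.3 CPM in old and from 5.28 to 24.1 CPM in young females, and in the S-phase cluster from 77.5 to 113 and from 19.3 to 49.3 CPM (exact permutation p = 0.0079, adjusted 0.175 over 66 comparisons, for each). S100a8 was higher in old mice in 7 of 8 clusters, with 50.4 to 120 against 26.4 to 47.0 CPM in the first of these. The clusters themselves were unequal between the ages, the DCMo-like one making up more of old than of young female cells and the NeuMo-like one 14.4 and 11.6%, and the part of that in the pooled values was not tested.

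In males neither difference passed. Lcn2 outside member-rich cells stood at 21.7, 45.3, 99.2, 25.6 and 12.8 CPM in old and at 25.2, 36.5, 34.5, 27.8 and 15.0 CPM in young males (exact permutation p = 0.675), and S100a8 at 58.2 to 624 against 130 to 381 CPM (exact permutation p = 0.659). Old male 3 stood far above the other males for both genes, and the means for Lcn2 were 40.9 ± 34.7 CPM in old and 27.8 ± 8.52 CPM in young males (SD, n = 5 each). The interaction of age and pool on these cells gave 0.38 (SE 0.431, adjusted p = 0.992 by edgeR) for Lcn2, which does not show that age acts alike in both pools.

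**Figure D5:**
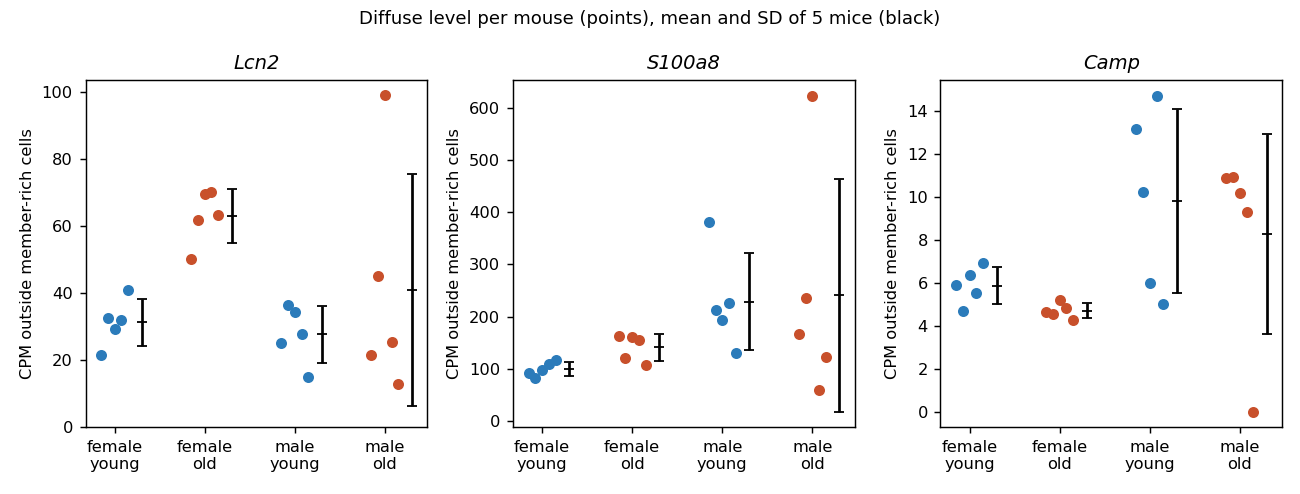
Level outside member-rich cells (CPM) of Lcn2, S100a8 and Camp by sex and age, 1 point per mouse, with the mean and SD of 5 mice in black. The 5 old females lie above the 5 young ones for Lcn2, at 50.4 to 70.4 against 21.7 to 41.0 CPM, while the male groups overlap for all 3 genes.

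Related genes were counted from lists of granule proteins, S100 proteins, receptors and transcription factors. The counts stand beside 4.73% of all genes called. Of 12 further secondary granule genes tested in females, 1 was higher and 3 were lower in old mice by edgeR, with a median log2 fold change of -0.10 against -0.004 over all genes. Chil3 rose by 0.94 (adjusted p = 0.0156 by edgeR, 1512 ± 650 against 792 ± 99.1 CPM). Pglyrp1 fell by 0.45 (adjusted p = 0.0413), Cnn2 by 0.21 (adjusted p = 0.0358) and Cybb by 0.21 (adjusted p = 0.0334), all by edgeR.

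Of the 9 primary granule genes tested 0 passed, with a median of 0.15. Of 7 genes of tertiary granules and late neutrophils 1 passed, Ifitm1, an interferon-inducible membrane protein, at 2.60 (adjusted p = 0.0120 by edgeR, 52.0 ± 43.2 against 8.38 ± 1.86 CPM). Of 6 other S100 genes 0 passed, with a median of 0.06. Of 7 receptors of S100 proteins, cathelicidin or lipocalin 1 passed, Fpr2, a formyl peptide receptor that also binds the cathelicidin peptide, at 0.61 (adjusted p = 0.00876 by edgeR).

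Of 11 transcription factors 0 rose and 3 fell. Klf4 fell by 0.51 (adjusted p = 0.00412 by edgeR), Irf8 by 0.18 (adjusted p = 0.04996) and Ets1 by 1.31 (adjusted p = 0.0431). Ets1 was low, at 1.18 ± 0.838 CPM in old and 2.80 ± 0.875 CPM in young females. Only 1.125% of the female cells not member-rich had a UMI of it. In males 0 genes of any list passed by edgeR, with list medians from -0.19 to 0.47 against 0.01 over all genes.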

How the data were processed

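The values were UMI counts, by cell barcode, of genes and antibodies, used as the authors deposited them, without normalization. Per the methods, reads had been aligned with STAR 2.5.1 to mm10 and counted with Cell Ranger 4.0.0, while the file headers name 7.0.0 for the male and 3.1.0 for the female data. Each hashtag was matched to a mouse by the authors' table. The members and gene lists were chosen with earlier results of these data known.

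Cells with over 200 genes, under 5% mitochondrial UMIs and a leading hashtag of at least 10 counts and 3 times the next were kept (7 female barcodes failed on genes, 534 on mitochondrial share and 2401 on the hashtag rule). No doublet caller was applied beyond this rule, and doublets within a mouse carry 1 hashtag and pass it. The authors' later removal of a small female subset was not repeated. Member-rich cells (1% or more of UMIs) were fixed with the design, and Camp-rich cells (5 or more Camp UMIs) were defined after the data were seen.

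UMIs were summed per mouse and tested with edgeR 4.0.16 (TMM, filterByExpr, quasi-likelihood, two-sided, Benjamini-Hochberg over all genes, 0.05), within each pool and for the interaction. For shares and log2(CPM + 1) levels the test was an exact permutation over mice, two-sided. On simulated counts with 200 genes changed 4-fold, all above the median level, the edgeR step recovered 200 at the female settings, with 10 false calls among 10318 genes, and 199 at the male settings, with 16 false calls among 5477 genes. DESeq2 1.42.0, other hashtag rules (HTODemux in Seurat 5.3.0), other filters, thinning to 2000 UMIs and omission of each mouse were alternatives. Clusters came from SCTransform (sctransform 0.4.2) and integration on 3000 features less the 6 genes, 20 components, resolution 0.3, in R 4.3.3, and were named by marker lists. A test of other genes between member-rich and other cells within mice was planned, but 3 female and 0 male mice had 5 member-rich cells, where no p under 0.25 is possible, so those values are descriptions. Named genes were the 6 members, every list gene past the threshold, the 10 most like the members over mice and the 10 highest in member-rich cells. Gene positions are those of GENCODE on GRCm38 and upstream sequence that of RefSeq. Of the S100a8 and Lcn2 windows no sequence is shown, since annotated transcripts cover them.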

Additional observations from a re-analysis of the deposited data

Results flagged for a closer look

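Values of single mice that stood far from the other 4 of their group were looked for in 48 groups of 5 mice (6 genes, 4 groups, in all cells and outside member-rich cells), by the gap to the nearest mouse over the range of the group. For normally distributed values the cut would mark about 1 in 20 groups, and 13 were found. That rate does not hold here, since few cells set the CPM values and the 6 genes share those cells.

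Most came from 2 females. Young female 3, the young female with the fewest cells (245), was far above the other young females for all 6 genes, at 832 CPM for S100a8, 1214 CPM for S100a9, 588 CPM for Camp, 481 CPM for Ngp, 61.9 CPM for Ltf and 189 CPM for Lcn2. It had 2 Camp-rich cells, which held 1664 of its 1682 Camp UMIs. Old female 3 was far above the other old females for S100a9 (423 CPM), Camp (137 CPM) and Ngp (68.7 CPM), and had 5 Camp-rich cells where the others had 0. Young male 2 stood at 263 CPM for Ltf, of which 133 of 185 UMIs came from 1 cell.

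Outside member-rich cells, Camp was at 0 CPM in old male 5, Ngp at 13.2 CPM in young male 1 and Ltf at 1.21 CPM in old female 2. These rest on 0, 12 and 8 UMIs.

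Female barcodes left out of all comparisons also held member-rich ones. Of 2294 that failed the hashtag rule alone, 20 were member-rich, or 0.872% (exact 95% interval 0.533 to 1.34%), beside 0.657% of the kept cells (0.488 to 0.866%). Of the 2294, 13 had 5 or more Camp UMIs, or 0.567% (0.302 to 0.967%), beside 0.184% of the kept cells (0.101 to 0.309%). The 14 kept Camp-rich cells were thus about as many as those left out, which made up a larger share of their barcodes. Of 535 that failed the gene or mitochondrial limit, 7 were member-rich, or 1.31% (0.528 to 2.68%).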

How the results depend on the processing

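For old against young females, 3 members passed without a filter on low counts (S100a9 -1.86, Ngp -2.85, Ltf -3.44), 1 with DESeq2 (Ltf -3.99), 2 without cells with 2 or more neutrophil markers (S100a9 -1.43, and Lcn2, which turned to 0.45) and 2 without member-rich cells (S100a8 and Lcn2, which turned to 0.51 and 1.01, with S100a9 at 0.36, not passing). That marker rule removed 52.8% of the female cells not member-rich, since the monocytes also express some of those markers. With every cell given to its leading hashtag, which brings back barcodes that failed the hashtag rule, no member passed by edgeR. Female fold changes were then nearer to no change than in the main fit. They stood at -0.579 (main -0.765) for S100a8, -1.249 (-1.865) for S100a9 and -1.412 (-2.515) for Camp. For Ngp it was -1.375 (-2.852) and for Ltf -1.015 (-3.431). Of alternatives chosen after seeing the data, 1 member passed without Camp-rich cells (Lcn2 0.81, with S100a8 at 0.14 and S100a9 at -0.48), 2 without cells at 0.3% or more (S100a8 0.45, Lcn2 1.06) and 1 without cells at 3% or more (Lcn2 0.94, with S100a8 0.39, S100a9 0.24 and Camp 0.23). Lcn2 in all cells, at -0.05, also turned sign with HTODemux singlets (0.035), a leading hashtag 10 times the next (0.084) and thinning (0.34). In males S100a9 turned to -0.77 without member-rich cells and to -0.56 at the 0.3% limit, where S100a8 turned to -0.02.

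Of 12 comparisons of the level outside member-rich cells, 2 passed with HTODemux singlets, with thinning and without cells with 2 or more neutrophil markers. Of the shares of cells with a UMI, 0 passed with every cell given to its leading hashtag or without those marker cells.

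With each mouse left out, called members ran from 0 to 4 in females (4 without old female 3, 1 without young female 2), from 0 to 0 in males and from 0 to 0 for the interaction. Comparisons past the threshold ran from 0 to 2 for the level outside member-rich cells (2 without old female 5 or young female 2), from 0 to 2 for the shares with a UMI and from 0 to 1 for the share of member-rich cells (1 without old male 1). Female log2 fold changes ran from -1.12 to -0.38 for S100a8, -3.02 to -1.25 for S100a9, -5.36 to -1.69 for Camp, -5.36 to -1.80 for Ngp, -4.05 to -2.06 for Ltf and -0.22 to 0.40 for Lcn2. Male ones ran from 0.65 to 2.11 for S100a8, 0.51 to 2.26 for S100a9, 0.05 to 1.98 for Camp, -0.63 to 1.60 for Ngp and -0.21 to 1.25 for Lcn2. Male Ltf, which failed the filter, ran from -0.71 to 1.74 as a difference of log2(CPM + 1), and edgeR without the filter gave -0.57. Of all other member fold changes under alternatives, 98 kept direction and side of the threshold. The causes were not tested.

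No paired analysis was possible because mouse numbers name hashtags and pair no old mouse with a young one. Male mice, with 49 to 206 cells at 3805.5 to 8844 UMIs per cell, set the depth there.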

Other observations

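A female cluster of 35 shallow barcodes (median 2383 UMIs) was led by the pituitary hormone genes Gh, Pomc and Prl. Its 1 member-rich cell was the Camp-rich cell of young female 1, which held 1068 of the 1113 Camp UMIs of that mouse. With this cell, Camp stood at 9699 CPM in the cluster. Outside this cell, Camp stood at 84.9 CPM, Ngp at 95.5 CPM and S100a9 at 265 CPM, above the monocyte clusters. These levels rest on 8, 9 and 25 UMIs in 34 cells. S100a8 (202 CPM) and Lcn2 (53.1 CPM) lay below the NeuMo-like cluster (224 and 74.8 CPM), and Ltf was at 0 CPM. The cluster was given no cell type name, and it made up 0.0177% of old and 0.413% of young female cells (mean over mice).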
